A study of Mus musculus with 8 samples.

Results

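The genes described here are 10 genes of the MHC class I pathway of antigen presentation, *B2m*, *H2-K1*, *H2-D1*, *Tap1*, *Tap2*, *Tapbp*, *Psmb8*, *Psmb9*, *Psmb10* and *Nlrc5*, of 21938 protein-coding mouse genes examined. They were chosen by name for their role, and the peaks of acetylated histone H3 lysine 9 (H3K9ac), a mark of active promoters, were taken within 1 kb on each side of any of their annotated transcription start sites (TSSs) on mm10. H3K9ac ChIP-seq had been performed on frozen bone marrow (BM) cells of C57BL/6 mice. All carry the *Nup98-HOXD13* transgene, a model of myelodysplastic syndrome that can progress to acute myeloid leukaemia. The mice expressed *GFI1-36S*, the common form of the transcriptional repressor GFI1, *GFI1-36N*, its variant form, or a lowered level of GFI1 (*GFI1-KD*). For each genotype there was 1 library from mice given curcumin at 20 mg/kg, by a weekly intraperitoneal injection, and 1 from controls, which received DMSO (vehicle). The age of the mice and the number behind each library were not given in the sources used here, and mice were analysed once they showed leukaemia or poor health, so the stage of disease behind each library is not known. The labels give BM cells, while a figure title of the study speaks of c-kit+ cells, and no sort is described for the ChIP-seq. BM cells are a mixture, so a smaller share of cells with the mark and less of the mark per cell cannot be told apart.

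MHC class I molecules display peptides from inside the cell to CD8 T cells and natural killer cells. Proteasomes cut proteins into peptides, the TAP transporter carries them into the endoplasmic reticulum, and tapasin helps to load them onto a heavy chain paired with β2-microglobulin. Blood cells express the pathway at a high level, interferon raises it further, and the activator NLRC5 acts on a promoter module that many class I genes share.

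With 1 library per group, no difference below has a replicate check, no p-value is given, and all intervals cover counting error only. The 6 lists held between 20354 and 49213 peaks, and 9726 to 11801 genes had a promoter peak, with the lowest number of both in the *GFI1-36S* curcumin library. For *GFI1-36S* mice, the list names and the sample labels disagree on which library had curcumin. Groups follow the labels, and every direction from vehicle to curcumin given below for *GFI1-36S* mice turns around if the names are right. By the list names, the *GFI1-36N* vehicle mouse was heterozygous and the curcumin mouse homozygous, on which the labels are silent. The *GFI1-36S* curcumin library also stood apart in its cell type markers. Of 14 T cell genes, 13 had a promoter peak there against 6 with vehicle, and of 16 neutrophil genes 0 against 15. *Cd3d*, *Cd3e*, *Cd3g* and *Cd4* had a peak there and none with vehicle. Peaks on chromosome Y, 3 in all, were listed in that library alone. In *GFI1-KD* mice, neutrophil genes with a peak went from 15 with vehicle to 9 with curcumin. All 4 leukocyte genes (*Ptprc*, *Spi1*, *Coro1a*, *Laptm5*) had a peak in every library except *Spi1* in the *GFI1-36S* curcumin library. Their median rank was not steady. In *GFI1-36N* mice it went from 88.6 to 59.5 under curcumin, where all 4 ranked lower, and in *GFI1-KD* mice from 81.1 to 68.5, where 3 did. *Gfi1* itself had a promoter peak in all 6 libraries. A histone mark at the mouse gene does not measure which GFI1 form was made and so checks no label.

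Because NLRC5 works through promoter sequence, the bases upstream of the RefSeq start are shown for *B2m*, for both heavy chains and for the promoter between *Tap1* and *Psmb9*. Each runs 5′ to 3′ on the strand of its gene, from the RefSeq table for GRCm38.p6, the assembly of mm10. Capitals mark the kappa B site, TGACG (the core of the X2 box) and CCAAT, and in *B2m* also the interferon-stimulated response element. Each was searched as a fixed pattern on both strands, so that ATTGG is CCAAT on the other strand.
*B2m*, chr2:122147507-122147686, plus strand: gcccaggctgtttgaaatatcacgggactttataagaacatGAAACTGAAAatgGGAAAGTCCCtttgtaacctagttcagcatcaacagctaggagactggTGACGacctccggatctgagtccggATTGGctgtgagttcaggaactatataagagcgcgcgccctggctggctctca
*H2-K1*, chr17:34000348-34000527, minus strand: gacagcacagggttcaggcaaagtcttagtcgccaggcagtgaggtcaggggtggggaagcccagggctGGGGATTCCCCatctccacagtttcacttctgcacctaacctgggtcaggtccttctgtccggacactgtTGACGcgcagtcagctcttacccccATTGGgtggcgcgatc
*H2-D1*, chr17:35262914-35263093, plus strand: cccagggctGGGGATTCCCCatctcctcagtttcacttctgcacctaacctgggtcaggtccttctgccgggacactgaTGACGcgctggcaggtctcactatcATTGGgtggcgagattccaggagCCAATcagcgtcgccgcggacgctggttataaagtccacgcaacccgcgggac
*Tap1*, chr17:34187306-34187555, plus strand: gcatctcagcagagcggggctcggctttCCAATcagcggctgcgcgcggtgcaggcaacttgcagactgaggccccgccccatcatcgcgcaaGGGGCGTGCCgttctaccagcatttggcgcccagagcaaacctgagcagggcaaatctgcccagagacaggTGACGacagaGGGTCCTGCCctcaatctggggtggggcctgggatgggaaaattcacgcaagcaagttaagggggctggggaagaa
In the first 3 promoters TGACG was followed by ATTGG, their first bases 25 bases apart. In *B2m*, TGACG began at base −78 and ATTGG at base −53, counted from the RefSeq start. Among 32817 RefSeq promoter windows of 250 bases before to 50 after a start, 19 (0.0579%) held this pair at this spacing on the given strand. The spacing was taken from these 3 promoters and their own windows are among the 19, so the share is a description and no test. TGACG at any place was found for 5 of the 8 members with a window in the table and in 20.8% of all windows. The kappa B site was also found for 5 of 8, against 17.4% of all windows, and CCAAT for 6 of 8, against 37.4%. The fixed pattern used for the interferon-stimulated response element matched only *B2m* of the 8 members, against 3.43% of all windows. Forms of the element that differ from this pattern were not searched. The search therefore does not show that the other members, *H2-K1* and *H2-D1* among them, lack the element. TTCNNNGAA (a gamma-activated site) was found only for *Psmb8*, against 8.29%. GGGCGG (an SP1 site) was found for *Tap1*, *Psmb9* and *Tapbp*, against 35.6%. The *Tap1* and *Psmb9* windows overlap by 275 bp and hold the same sites on opposite strands. The counts for TGACG, kappa B, CCAAT and GGGCGG therefore take this shared promoter as 2 members. The kappa B matches of *H2-K1* and *H2-D1* lie in a like place, and these 2 printed stretches share a run of 40 identical bases. *H2-K1* and *H2-D1* are close paralogs, and how reads that fit more than 1 place were treated is not given in the sources used here, so values that tell these 2 genes apart are uncertain.

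All 10 genes had a promoter peak in every library. To compare levels, the tallest promoter peak of a gene, by its fold enrichment over the local background, was ranked from 0 to 100 among all genes with a promoter peak in the same library. The median rank of the 10 genes went from 65.6 with vehicle to 51.8 with curcumin in *GFI1-36S* mice. It was 70.0 and 66.4 in *GFI1-36N*, then 73.1 and 63.0 in *GFI1-KD* mice. The median rank of the class I genes was therefore above the middle of the ranked promoters in each of the 6 libraries, and lower with curcumin in each genotype. A rank places a gene among the others of its library and is not a level, and in *GFI1-36N* mice the summit heights given below were mostly higher with curcumin. *Nlrc5* had the lowest rank of the 10 in every library. The 10 genes are marked by 9 peaks, since *Tap1* and *Psmb9* share 1 peak in each library and their values are the same. No other gene shared a strongest peak with a member. No member lost its peak with curcumin, while the shares of genes that did were 16.2% (*GFI1-36S*), 1.84% (*GFI1-36N*) and 6.73% (*GFI1-KD*). Such loss was rare among highly ranked genes. Of all genes ranked 75 or more with vehicle, 27 of 2842, 0 of 2831 and 1 of 2931 lost their peak, in the same order.

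**Figure D1:**
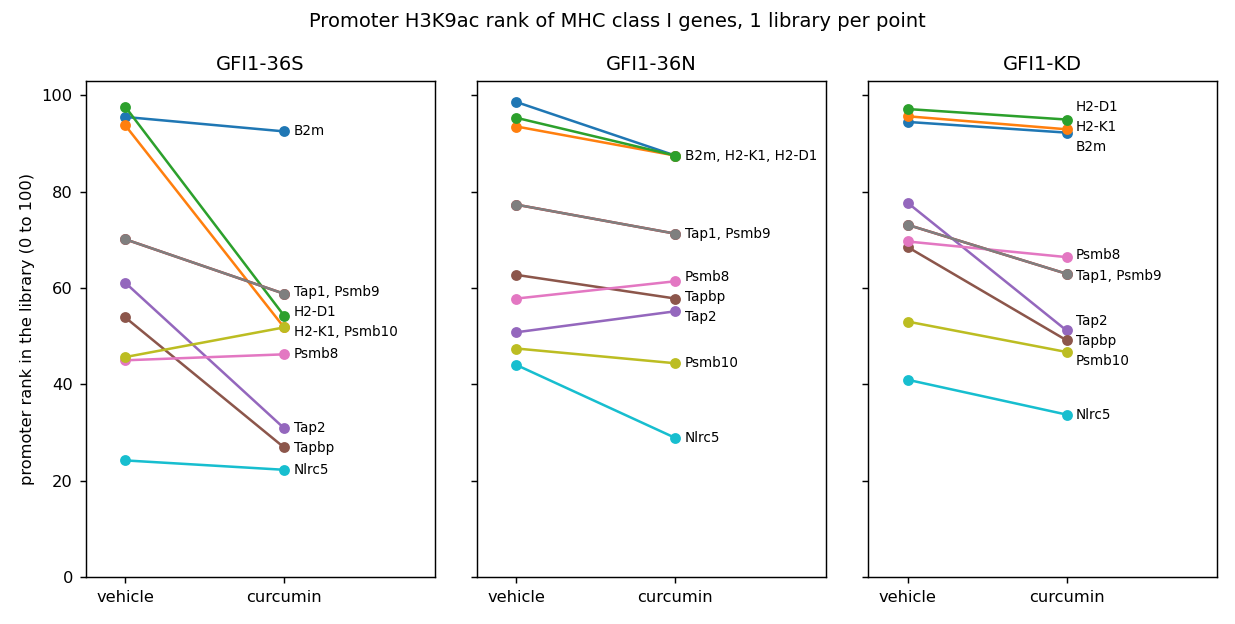
Promoter rank, from 0 to 100, of the 10 genes with vehicle and with curcumin in each genotype, 1 library per point. The genes *B2m*, *H2-K1* and *H2-D1* lead with vehicle in every genotype, and in *GFI1-36S* mice the heavy chains fall to 51.8 and 54.3 with curcumin while *B2m* stays at 92.5.

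β2-microglobulin, the light chain of every class I molecule, is encoded by *B2m* (chromosome 2, 122147686 to 122153083, plus strand). It ranked 95.5 with vehicle and 92.5 under curcumin in *GFI1-36S*, 98.6 and 87.5 in *GFI1-36N*, then 94.5 and 92.3 in *GFI1-KD* mice. The light chain was thus among the highest ranked promoters, and the largest step in rank was in *GFI1-36N* mice. Height is given below as the fragments at the peak summit over the genome-wide background of the library. The *B2m* summit stood at 43.6 (95% Poisson interval 37.9 to 49.9) with vehicle and 27.1 (22.6 to 32.3) with curcumin in *GFI1-36S* mice. In *GFI1-36N* mice it was 43.6 (38.4 to 49.3) and 38.7 (33.3 to 44.7), and in *GFI1-KD* mice 46.8 (41.6 to 52.6) and 40.0 (34.6 to 46.0). The 2 intervals overlap in *GFI1-36N* and *GFI1-KD* and do not in *GFI1-36S* mice, where the step in height was the largest.

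The *B2m* peak was also the widest of the 10 with vehicle. It measured 5114 bp with vehicle and 1853 bp with curcumin in *GFI1-36S*, 6208 and 3826 bp in *GFI1-36N*, then 6536 and 3947 bp in *GFI1-KD* mice. Most of the loss lay at the downstream end in *GFI1-36N* and *GFI1-KD* mice. This edge was 4959 bp from the TSS with vehicle and 2694 bp with curcumin in *GFI1-36N*, then 4558 and 1963 bp in *GFI1-KD* mice. This edge lay at 3119 and 1799 bp in *GFI1-36S* mice, where the upstream edge also went from 1994 to 53 bp before the TSS and the promoter held 2 peaks in place of 1.

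The classical heavy chains, which bind the peptide, are encoded by *H2-K1* (chromosome 17, 33996017 to 34000347, minus strand) and *H2-D1* (chromosome 17, 35262730 to 35267499, plus strand). *H2-K1* ranked 93.8 with vehicle and 51.8 with curcumin in *GFI1-36S*, 93.6 and 87.5 in *GFI1-36N*, then 95.7 and 93.0 in *GFI1-KD* mice. *H2-D1* ranked 97.7 and 54.3, 95.4 and 87.5, and 97.2 and 95.0 in the same order. Both heavy chains kept a high rank in every library but the *GFI1-36S* curcumin library. With curcumin in *GFI1-36N* mice, *B2m*, *H2-K1* and *H2-D1* were tied at 185 fragments. In the *GFI1-36S* curcumin library the *H2-K1* peak measured 866 bp and began 68 bp downstream of the first TSS, so it did not reach the TGACG and ATTGG pair printed above. In the other 5 libraries the *H2-K1* peak began between 489 and 593 bp upstream of that TSS. The *H2-D1* peak was narrower with curcumin in every genotype, from 2799 to 1577 bp in *GFI1-36S*, from 3594 to 2191 bp in *GFI1-36N*, then from 3704 to 2651 bp in *GFI1-KD* mice.

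**Figure D2:**
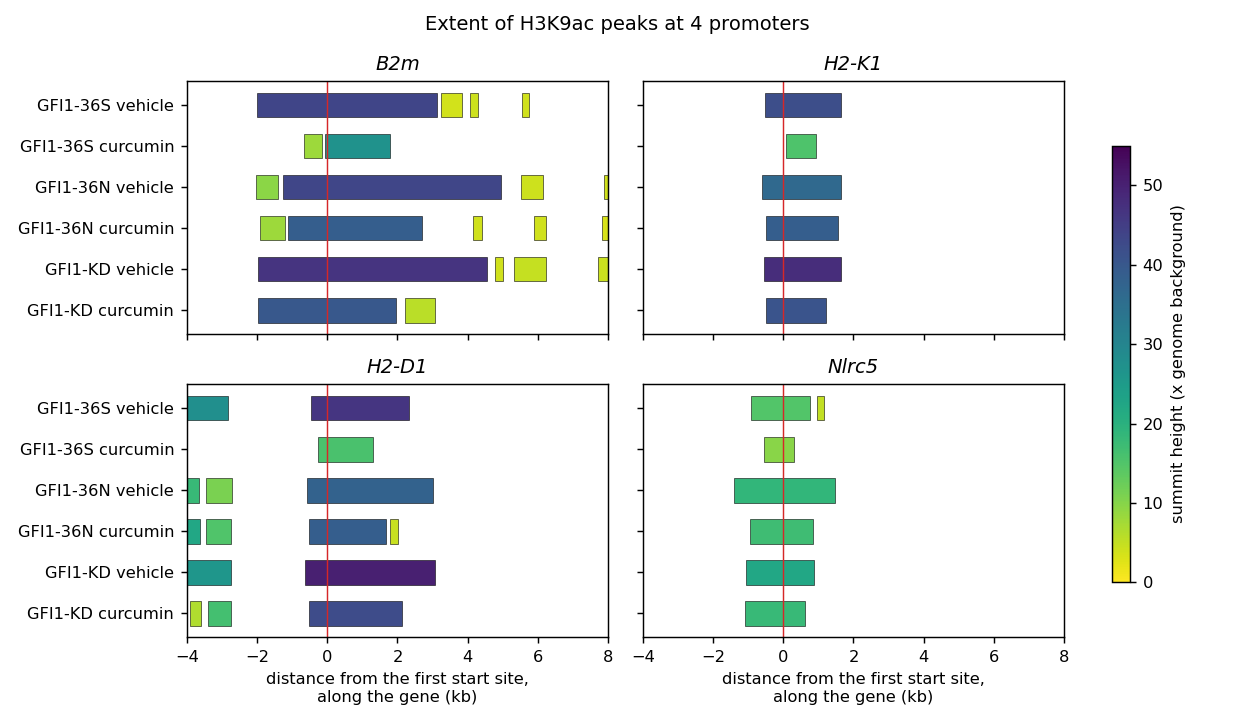
Peaks around the first TSS (red line) of *B2m*, *H2-K1*, *H2-D1* and *Nlrc5* in the 6 libraries, in kb along the gene, coloured by summit height over the genome background. The *B2m* peak is shorter at its downstream end with curcumin in each genotype (1799, 2694 and 1963 bp from the TSS).

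*Tap1* (chromosome 17, 34187553 to 34197225, plus strand) and *Tap2* (chromosome 17, 34203527 to 34216321, plus strand) together encode the peptide transporter. The peak at *Tap1* ranked 70.1 with vehicle and 58.8 with curcumin in *GFI1-36S*, 77.3 and 71.3 in *GFI1-36N*, then 73.1 and 63.0 in *GFI1-KD* mice. *Tap2* ranked 61.1 and 30.9, 50.8 and 55.2, and 77.7 and 51.2 in the same order. The *Tap1* peak ranked lower with curcumin in all 3 genotypes, while *Tap2* ranked lower in the *GFI1-36S* and *GFI1-KD* pairs but higher in the *GFI1-36N* pair. The summit of the *Tap2* peak lay 1131 to 1293 bp downstream of the TSS used here, outside the window. The RefSeq gene starts 952 bp further downstream than that TSS. *Tapbp* (chromosome 17, 33919332 to 33929292, plus strand), which encodes tapasin, ranked 53.9 and 26.9 in *GFI1-36S*, 62.7 and 57.8 in *GFI1-36N*, then 68.5 and 49.2 in *GFI1-KD* mice. Tapasin ranked lower with curcumin in each genotype, but in *GFI1-36N* mice the change of −4.91 points lay within its counting error (half-width 20.5) and the summit height was higher, 23.8 and 27.8 over background.

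*Psmb8* (chromosome 17, 34197790 to 34201454, plus strand), *Psmb9* (chromosome 17, 34181987 to 34187764, minus strand) and *Psmb10* (chromosome 8, 105935739 to 105938444, minus strand) encode the catalytic subunits of the immunoproteasome. *Psmb8* ranked 45.0 with vehicle and 46.2 with curcumin in *GFI1-36S*, 57.8 and 61.4 in *GFI1-36N*, then 69.7 and 66.4 in *GFI1-KD* mice. *Psmb10* ranked 45.7 and 51.8, 47.4 and 44.4, and 53.0 and 46.7 in the same order. Neither gene moved by as much as 10 points in any genotype, and the rank of *Psmb9* is that of *Tap1*. *Psmb9* and *Tap1* are transcribed away from each other, their RefSeq starts are 226 bp apart and their RefSeq promoter windows overlap by 275 bp. The summit of their shared peak lay between −430 and −388 bp from the *Tap1* TSS, upstream on the side of *Psmb9*, in 4 libraries. In the vehicle libraries of *GFI1-36N* and *GFI1-KD* mice it lay 229 and 181 bp downstream of the nearest *Tap1* TSS, inside *Tap1*. The shared peak was between 2720 and 3178 bp wide, and in *GFI1-36S* mice it measured 2860 bp with vehicle and 2905 bp with curcumin.

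**Figure D3:**
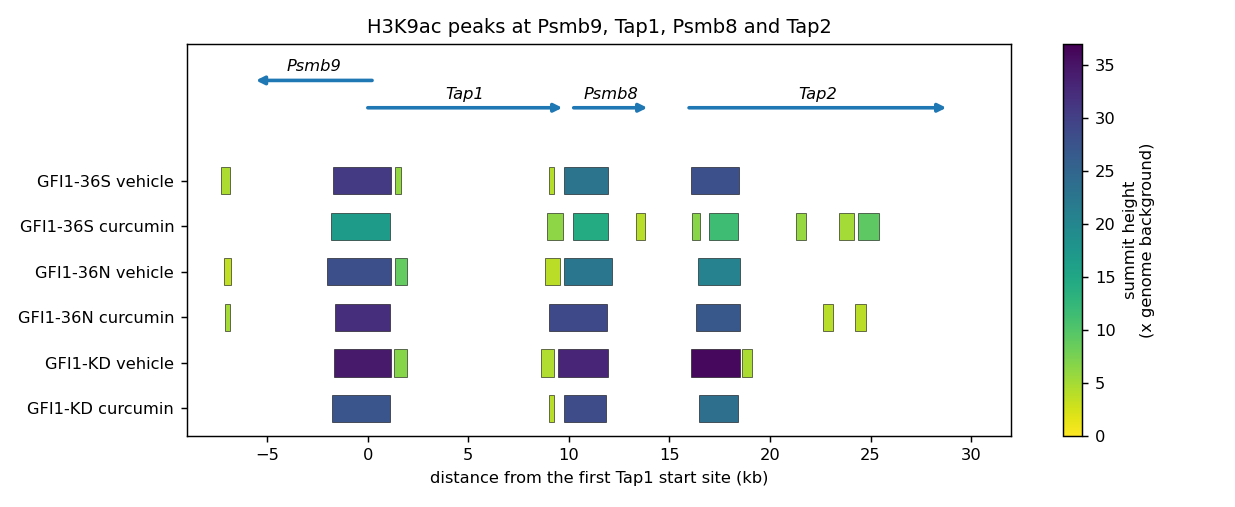
Peaks over *Psmb9*, *Tap1*, *Psmb8* and *Tap2* in the 6 libraries, in kb from the first *Tap1* TSS, coloured by summit height over the genome background, with the genes as arrows. The tallest peaks sit at or just inside the starts of the genes in every library, and the *Psmb9* and *Tap1* starts lie under 1 peak.

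*Nlrc5* (chromosome 8, 94434391 to 94527272, plus strand) encodes the activator of class I transcription. It ranked 24.2 with vehicle and 22.2 with curcumin in *GFI1-36S*, 44.0 and 28.9 in *GFI1-36N*, then 40.9 and 33.7 in *GFI1-KD* mice. The rank was lower with curcumin in each genotype, most in *GFI1-36N* mice. Its peak measured 1702 and 875 bp, 2887 and 1803 bp, and 1945 and 1693 bp in the same order. The main peak lay at the first TSS in all libraries, with summits 71 to 195 bp downstream. Small further peaks over start sites inside the gene were listed with vehicle in *GFI1-36S* and *GFI1-KD* mice and not in the other 4 libraries. Over the gene and 5 kb on each side there were 8 peaks with vehicle and 1 with curcumin in *GFI1-36S*, 4 and 7 in *GFI1-36N*, then 7 and 3 in *GFI1-KD* mice.

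The study asked what curcumin, which can inhibit histone acetyltransferases, does to H3K9ac in mice with different forms of GFI1. In *GFI1-36N* mice, 8 of the 10 genes ranked lower with curcumin, while 39.9% of all genes did. The median change was −6.02 points, against +1.89 over all genes. Lower by at least 10 points were 2, *Nlrc5* (−15.2) and *B2m* (−11.1), against 11.3% of all genes. None was higher by as much, against 19.3% of all genes. The remaining 8 changes lay between −7.84 (*H2-D1*) and +4.36 (*Tap2*). Of all genes ranked 75 or more with vehicle, 59.1% were lower. Summit height was higher over all genes in this pair, with a median ratio of curcumin to vehicle of 1.24, and the 10 genes had a median ratio of 1.14. The height was thus higher with curcumin in 8 of the 10 genes, with an interval above 1 in 2 of them. For *B2m* the ratio was 0.888 (0.731 to 1.08) and for *Nlrc5* 0.915 (0.679 to 1.23), and the exact interval of both lay below the median of all genes, as it did for 7.21% of genes. No member had an interval above that median, as 7.4% of genes had. The strongest peak was narrower in 7 of 10, against 38.8% of all genes. It was narrower by at least 1.5-fold in 3, *B2m*, *H2-D1* and *Nlrc5*, against 6.17% of all genes. Of 10 macrophage and dendritic genes, which include MHC class II genes, 9 had a promoter peak with vehicle and 6 with curcumin, of 10 erythroid genes 8 and 5, of 14 T cell genes 8 and 5, and of 16 neutrophil genes 12 in both. The median change of the 4 leukocyte genes in this pair was −21.8 points. The part of cell type in these values was not tested.

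In *GFI1-KD* mice, all 10 genes ranked lower with curcumin, while 62.9% of all genes did. The median change was −6.77 points, against −2.34 over all genes. Lower by at least 10 points were 4, against 20.6% of all genes. These were *Tap2* (−26.5), *Tapbp* (−19.4) and the peak of *Tap1* and *Psmb9* (−10.2). *Tap2* and *Tapbp* therefore moved most, while the change of the shared *Tap1* and *Psmb9* peak lay within its counting error (half-width 18.3). *B2m*, *H2-K1* and *H2-D1*, near the top of the ranks, each moved by less than 3 points. Their height ratios were 0.855, 0.845 and 0.845. None was higher by at least 10 points, against 9.47%, and of all genes ranked 75 or more with vehicle 64.2% were lower. The height ratio was 0.653 (0.518 to 0.821) for *Tap2* and 0.620 (0.491 to 0.779) for *Tapbp*, against a median of 0.885 over all genes. These were the only 2 members whose interval lay below that median, as it did for 7.87% of all genes, and none lay above it, as for 7.59%. The median ratio of the 10 was 0.821. The strongest peak was narrower in 8 of 10, against 88.2% of all genes, and by at least 1.5-fold in 1, *B2m*, against 27.0%. In width, the 10 genes were thus no more often narrower than all genes in this pair. Macrophage and dendritic genes with a promoter peak went from 10 of 10 to 5, and erythroid genes from 10 of 10 to 5. The median change of the 4 leukocyte genes was −12.6 points. The part of cell type was not tested.

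In *GFI1-36S* mice, 8 of the 10 genes ranked lower with curcumin, against 69.1% of all genes. The median change was −11.3 points, against −6.61 over all genes. Lower by at least 10 points were 6, against 41.4% of all genes. The sizes were large for *H2-D1* (−43.4), *H2-K1* (−42.0), *Tap2* (−30.2) and *Tapbp* (−27.0). The others were *Tap1* and *Psmb9*, whose shared peak changed by −11.3 points, within its counting error (half-width 23.8). With that peak counted once, 5 were lower by at least 10 points. In contrast, *B2m* changed in rank by −3.00 points, *Psmb8* by +1.24 and *Psmb10* by +6.16. Summit height was still lower with curcumin in all 10 genes, by at least 1.5-fold in each, against 68.8% of all genes. The interval of the height ratio lay below 1 in all 10. None was higher by at least 10 points, against 15% of all genes, and of all genes ranked 75 or more with vehicle 72.6% were lower. The height ratio was 0.341 (0.258 to 0.445) for *H2-D1*, 0.367 (0.276 to 0.483) for *H2-K1* and 0.412 (0.294 to 0.570) for *Tap2*. For these 3 the interval lay below the median of all genes, 0.583, as it did for 13.4% of all genes, and none lay above it, as for 16%. For *B2m* the ratio was 0.622 (0.494 to 0.780), and its interval does not overlap that of either heavy chain. The strongest peak was narrower in 8, against 94.6% of all genes, and by at least 1.5-fold in 6, against 60.4%. Beside these values, T cell genes with a peak went from 6 to 13 of 14, erythroid genes went from 10 to 3 of 10 and macrophage and dendritic genes from 6 to 1 of 10. The part of cell type in these values was not tested.

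**Figure D4:**
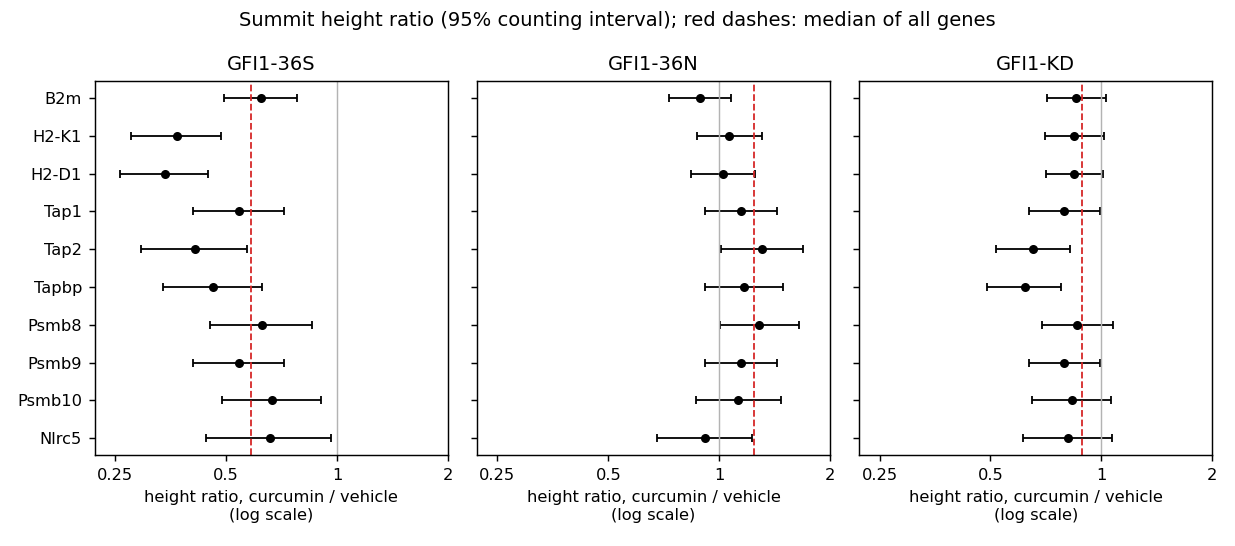
Ratio of summit height, curcumin over vehicle, on a log scale for each gene, with its exact 95% counting interval, 1 library per condition. The red dashes give the median over all genes (0.583, 1.24 and 0.885), and the intervals of *H2-K1*, *H2-D1* and *Tap2* in *GFI1-36S*, *B2m* and *Nlrc5* in *GFI1-36N*, then *Tap2* and *Tapbp* in *GFI1-KD* mice lie below it.

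**Figure D5:**
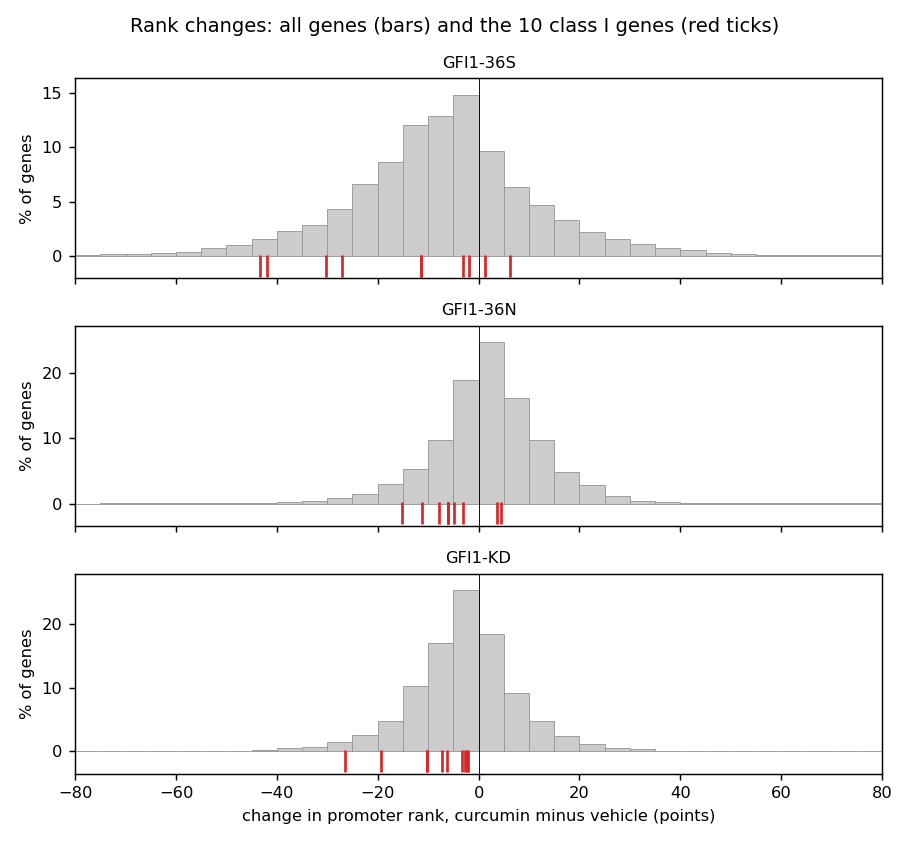
Change in promoter rank, curcumin minus vehicle, in points, as the share of all genes in each bin of 5 points (grey bars) with the 10 class I genes as red ticks. All 10 ticks lie below 0 in *GFI1-KD* mice, 8 in *GFI1-36N* and 8 in *GFI1-36S* mice, and the tick of *Tap1* and *Psmb9* is a single one.

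The vehicle libraries were set beside each other to describe the ranks of the class I genes in each genotype. Both comparisons share the *GFI1-36S* vehicle library, so the differences hold only if its label is right. By the list names it had curcumin, and the library in its place ranked *H2-K1* at 51.8 and *H2-D1* at 54.3. Relative to *GFI1-36S*, the median rank difference of the 10 genes was +5.14 points in *GFI1-36N* mice, against −0.67 over all genes. It was +5.18 points in *GFI1-KD* mice, against +1.14 over all genes. Higher by at least 10 points in *GFI1-36N* mice were *Nlrc5* (+19.8) and *Psmb8* (+12.8), while 15.3% of all genes were. *Tap2* was lower (−10.3), as were 17.5% of all genes by at least 10 points. Higher by at least 10 points in *GFI1-KD* mice were *Psmb8* (+24.7), *Nlrc5* (+16.8), *Tap2* (+16.6) and *Tapbp* (+14.6), while 16.4% of all genes were. None was lower by as much, against 9.97% of all genes. With the groups as labelled, the heavy chains and *B2m* differed by at most 3.10 points in either comparison.

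Other genes of the pathway were taken from 4 lists, and up to 3 genes of each are named by the size of their change in *GFI1-36N* and *GFI1-KD* mice. The 10 genes of peptide loading and trimming all had promoter peaks in every library. In *GFI1-36N* mice 7 of them ranked higher with curcumin, near the 60.1% of all genes, 4 by at least 10 points, against 19.3%, and their median change was +5.65. In *GFI1-KD* mice 9 ranked lower, against 62.9% of all genes, 3 by at least 10 points, against 20.6%, with a median change of −4.24. *Tapbpl*, a relative of tapasin, changed by +21.5 and −2.46 points in these genotypes, *Psme1*, a subunit of the PA28 proteasome activator, by +4.50 and −18.4, and *Sec61b*, a subunit of the translocon, by +10.4 and −12.5. In *GFI1-36S* mice 8 of the 10 ranked lower, against 69.1% of all genes, 1 by at least 10 points, against 41.4%, and *Psme1* (+27.8) and *Calr* (+16.4), a chaperone of the loading complex named after its value was seen, were higher by at least 10 points.

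Of 12 nonclassical and related heavy chain genes, 8 had a promoter peak in at least 1 library, and *H2-Q4*, *H2-Q6*, *H2-Q7* and *H2-Q10* had none in any. Of these 8, all 8 (*GFI1-36S*), 4 (*GFI1-36N*) and 7 (*GFI1-KD*) ranked lower with curcumin, against 69.1%, 39.9% and 62.9% of all genes. In each genotype 4 were lower by at least 10 points, against 41.4%, 11.3% and 20.6%. These were *H2-T23*, *H2-T22*, *H2-T24* and *H2-M3*, nonclassical heavy chains of the MHC region. The remaining 4, *Cd1d1*, *Mr1*, *Fcgrt* and *Hfe*, ranked higher in *GFI1-36N* mice, by +0.725 to +6.74 points. *H2-T22* changed by −17.1, −19.2 and −31.3 points in *GFI1-36S*, *GFI1-36N* and *GFI1-KD* mice. *H2-T24* changed by −40.7, −16.4 and −35.6 points, and *H2-M3* by −14.2, −22.5 and −16.1. In *GFI1-36S* mice *H2-T24* had no promoter peak with curcumin. The H2 genes of this list are paralogs of one another and of *H2-K1* and *H2-D1*, so the split of reads among them is uncertain.

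Of 15 regulators of class I transcription, 14 had a peak in the *GFI1-36N* pair. There 7 ranked lower with curcumin, against 39.9% of all genes, and 7 higher, against 60.1%. By at least 10 points 3 were lower, against 11.3% of all genes, and 3 higher, against 19.3%. In *GFI1-KD* mice 10 of 15 ranked lower, near the 62.9% of all genes, and 4 by at least 10 points, against 20.6%. In *GFI1-36S* mice 12 of 14 ranked lower, against 69.1%, and 8 by at least 10 points, against 41.4%. *Irf9*, part of the complex that answers type I interferon, had ranks of 63.7 with vehicle and 5.99 with curcumin in *GFI1-36S*, 87.9 and 31.4 in *GFI1-36N*, then 71.1 and 38.1 in *GFI1-KD* mice. This gene ranked far lower with curcumin in every genotype. *Irf8*, a factor of myeloid cells, changed by −18.5, −22.8 and +18.5 points in the same order. *Psmb5*, *Psmb6* and *Psmb7* encode the constitutive proteasome subunits that the immunoproteasome subunits replace. All 3 ranked higher with curcumin in *GFI1-KD* mice, by +10.6, +20.0 and +3.79 points, against 37.1% of all genes. In these mice each of the 3 immunoproteasome subunits ranked lower, against 62.9% of all genes. Their changes were −3.24 (*Psmb8*), −10.2 (*Psmb9*, the peak of *Tap1*) and −6.32 points (*Psmb10*), each within its counting error. In *GFI1-36N* mice *Psmb5* and *Psmb6* ranked higher, by +11.2 and +4.60 points, and *Psmb7* lower (−7.87). In *GFI1-36S* mice the changes were +18.4, −11.6 and +6.56.

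Over the 6 libraries, the ranks of 6385 other genes were set against the median rank of the 10 genes. The most alike were *S100a11* (Pearson r = 0.994), *Nos1ap* and *Msh5* (both 0.993), *Vav3* (0.992) and *Wdr1* (0.990). These are the highest of many values over only 6 libraries, which differ in depth and cell types, and are given as a description.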

How the data were processed

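H3K9ac ChIP-seq of BM cells gave 6 libraries, 1 per genotype and treatment. Input and rabbit IgG samples were not analysed here. The authors trimmed reads with Trim Galore, aligned them with BWA-MEM (mm10), ran MACS2 per library and left out ENCODE black list regions. The deposited lists give, per peak, an integer score, a fold enrichment over the local background (a ratio), −log10 p and −log10 q. No unit is normalized between libraries. The control of each list, the threshold and the handling of duplicates are not given in the sources used here. The lowest −log10 q was 1.31 to 1.46.

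Promoters covered 1 kb on each side of any TSS of the GENCODE M21 basic annotation, with an overlap of at least 1 bp. Peaks were ranked by the deposited fold enrichment. A gene without a peak had rank 0, and changes over all genes were taken over genes with a promoter peak in at least 1 library of a pair. Changes of at least 10 points or 1.5-fold were counted. The number of fragments at a summit was worked back from how MACS2 derives fold enrichment and p, within 0.002 on the −log10 p scale, for 100% of peaks, and the median summit held 24 to 36. Heights are fragments divided by the recovered genome background. Intervals are exact Poisson or, for ratios, Clopper-Pearson, at 95%. Python 3.11.15, numpy 2.4.6, scipy 1.17.1, pandas 2.3.3 and matplotlib 3.10.9 were used, and scripts were tested on simulated data.

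The members and lists were chosen with earlier results of these data known. All 10 members are named, with 3 genes of each pathway list by the mean size of change in *GFI1-36N* and *GFI1-KD* mice (1 is not reported here), *H2-T23*, *Calr*, *Cd1d1*, *Mr1*, *Fcgrt* and *Hfe*, named after their values were seen, and the 5 genes most alike in rank, among genes with a range of at least 20 points and a peak in at least 4 libraries. RefSeq promoters matched 8 of the 10 members. The alternatives were ranks by −log10 p, a minimum −log10 q of 5, equal lists of 20354 top peaks, a 3 kb window, the summit inside the window, the most upstream TSS, only genes with peaks in the whole pair, and an exchange of treatments in *GFI1-36S* mice. Heights were also taken as fold enrichment, and widths as window bases covered.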

Additional observations from a re-analysis of the deposited data

Results flagged for a closer look

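The changes in rank of 3 genes with curcumin had opposite signs in 2 genotypes, with 1 library per condition, and the differences between genotypes were not tested. *Tap2* changed by −30.2 points in *GFI1-36S* and by −26.5 in *GFI1-KD* mice, and by +4.36 in *GFI1-36N* mice. The counting error of each change has a half-width of 22.1, 17.9 and 20.0 points in this order, so the step in *GFI1-36N* mice lies within it and both others do not. *Psmb8* changed by +1.24 points in *GFI1-36S* and +3.59 in *GFI1-36N* mice, and by −3.24 in *GFI1-KD* mice. *Psmb10* changed by +6.16 points in *GFI1-36S* mice, by −3.06 in *GFI1-36N* and by −6.32 in *GFI1-KD* mice. All changes of *Psmb8* and *Psmb10* are smaller than their counting error, whose half-width is between 17.4 and 23.1 points.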

How the results depend on the processing

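For *GFI1-36S* mice, exchanging the treatments, as the names of the lists do, turned the median change to +11.3 points with 0 genes lower by at least 10. *H2-D1* then changed by +43.4, *H2-K1* by +42.0, *Tap2* by +30.2, *Tapbp* by +27.0, and *Tap1* and *Psmb9* by +11.3 points. With the summit required inside the window, the median change in *GFI1-36S* mice was −7.09 in place of −11.3 points, and *Tap2*, whose main peak has its summit outside, changed by +9.72 points there. Then 9 of the 10 genes, all but *Tap2*, had a promoter peak in the 5 libraries other than *GFI1-36S* curcumin. The change of *Tap2* in *GFI1-36N* mice and its −26.5 points in *GFI1-KD* mice thus have no value under this rule. The count lower by at least 10 points in *GFI1-KD* mice was then 3 in place of 4. The other 268 of 275 values of single genes stayed within counting error of the value given or kept their sign. Among them, 30 values for genes with peaks in the whole pair and 27 with the shared peak counted once could not differ. Another 4, from the exchange of treatments, are small changes with the sign turned and were also fixed in advance. The median change stayed negative and the count of genes lower by at least 10 points stayed within 1.5 times under each other alternative run, including the shared *Tap1* and *Psmb9* peak counted once and the TSSs of the comprehensive annotation, both chosen after seeing the data. No paired analysis was possible because each group has 1 library, so no library could be left out either. Summits of 45 to 308 fragments limit the precision of each height.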
